A study of Mus musculus with 13 samples.

Results

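The genes described here carry peptides of the cell's own proteins to the cell surface. They are the chains of the MHC class I molecule (B2m, H2-K1 and H2-D1), the genes that move and load peptide (Tap1, Tap2 and Tapbp) and the catalytic subunits of the immunoproteasome (Psmb8, Psmb9 and Psmb10). The 9 genes were chosen by name for these roles, with earlier results of these data known, and the rule uses no measured value. Of these, 8 were found by Ensembl identifier among the 37991 genes of the count table, and Psmb9 was not analysed here because its current identifier matched no row.

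Naive B cells were purified with magnetic beads from spleens of wild type C57BL/6 mice of 6 to 8 weeks and stimulated in culture for 24 h with CpG ODN 1668, an oligonucleotide that binds TLR9. The dose is given as 250 nM among the sample characteristics and as 250 ng/ml in the protocol. Viable cells were caught on a microfluidic chip and photographed, and the 5 smallest and 5 largest cells were sequenced to separate cells that had grown from those that had not. The wells of the small cells were H1, F7, C7, C12 and A2, and those of the large cells G2, E1, E3, C1 and C3. A negative control (Negative) held spike-in RNA without a cell, a positive control (Positive) held diluted material from many stimulated cells at 24 h, and a further bulk library came from unstimulated cells at 0 h. Neither mouse nor culture is named for any cell. Each size group therefore counts as 1 sample, and a difference between the sizes is described here without a p-value, since nothing replicates it.

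A class I molecule is a heavy chain, here H2-K1 or H2-D1, held together by the invariant light chain beta-2 microglobulin from B2m. The proteasome cuts cytosolic proteins into peptides, the TAP transporter made of Tap1 and Tap2 pumps them into the endoplasmic reticulum, and tapasin from Tapbp bridges the transporter and the waiting class I molecule. In lymphocytes and in cells exposed to interferon the catalytic subunits Psmb5, Psmb6 and Psmb7 are replaced in new proteasomes by Psmb8, Psmb9 and Psmb10, respectively. Class I promoters are textbook examples of genes bound by NF-κB and interferon regulatory factors, and NF-κB is a pathway that TLR9 engages in B cells.

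The 300 bases around the start sites of the class I chains are shown because these 3 genes were the members on in every cell, and that of Tap1 because it is shared with Psmb9. Each window runs 5′ to 3′ on the gene's strand, from 250 bases before to 50 bases after the RefSeq start in GRCm38.p6. The windows are B2m at chr2:122147437-122147736 (plus strand), H2-K1 at chr17:34000298-34000597 (minus strand), H2-D1 at chr17:35262844-35263143 (plus strand) and Tap1 at chr17:34187306-34187605 (plus strand). Capitals mark matches to the κB consensus on either strand and, in B2m alone, also GAAANNGAA, where N is any base. GAAANNGAA is a form of the core of the interferon-stimulated response element, and other forms were neither searched nor marked.
B2m: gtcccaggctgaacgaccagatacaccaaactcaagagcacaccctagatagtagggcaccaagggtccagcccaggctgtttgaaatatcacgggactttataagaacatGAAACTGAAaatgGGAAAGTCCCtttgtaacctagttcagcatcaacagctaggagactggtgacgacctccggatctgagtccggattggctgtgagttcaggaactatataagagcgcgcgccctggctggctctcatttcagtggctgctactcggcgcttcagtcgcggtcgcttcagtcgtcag
H2-K1: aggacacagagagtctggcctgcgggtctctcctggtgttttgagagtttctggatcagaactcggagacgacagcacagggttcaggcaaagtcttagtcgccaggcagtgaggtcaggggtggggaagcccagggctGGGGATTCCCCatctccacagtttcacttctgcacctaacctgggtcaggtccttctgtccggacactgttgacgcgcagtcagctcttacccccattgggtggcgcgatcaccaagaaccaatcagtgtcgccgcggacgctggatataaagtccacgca
H2-D1: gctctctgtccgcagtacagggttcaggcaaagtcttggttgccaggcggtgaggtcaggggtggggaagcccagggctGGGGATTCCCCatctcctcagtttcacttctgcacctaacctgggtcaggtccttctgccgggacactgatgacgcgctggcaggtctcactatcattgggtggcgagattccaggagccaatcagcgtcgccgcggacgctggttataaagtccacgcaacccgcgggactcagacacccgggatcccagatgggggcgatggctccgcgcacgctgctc
Tap1: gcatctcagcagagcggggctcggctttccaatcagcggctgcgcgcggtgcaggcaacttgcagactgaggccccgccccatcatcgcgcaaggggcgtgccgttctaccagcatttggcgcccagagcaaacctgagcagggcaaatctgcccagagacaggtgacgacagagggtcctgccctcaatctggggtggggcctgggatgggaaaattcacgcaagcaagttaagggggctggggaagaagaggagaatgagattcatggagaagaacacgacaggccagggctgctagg

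In B2m, counting the first transcribed base as 0, GAAANNGAA lay from -139 to -131 and the κB match, read on the opposite strand, from -126 to -117. H2-K1 and H2-D1 carried the same palindromic κB run of 11 bases, from -111 to -101 in H2-K1 and from -171 to -161 in H2-D1. It sat inside a stretch of 47 identical bases, the longest that these windows share. A RefSeq window was found for 8 of the 9 members, Tap2 being the one without, and the κB consensus occurred in 3 of the 8 (B2m, H2-K1 and H2-D1) beside 8.46% of 32851 mouse promoter windows. GAAANNGAA occurred in 1 of the 8 beside 8.56% of all windows. TGACG, a part of the cAMP response element, occurred in 5 of the 8 (B2m, H2-K1, H2-D1, Tap1 and Psmb9) beside 20.8%. Neither κB nor GAAANNGAA was found in the windows of the constitutive subunits Psmb5 and Psmb6. The start sites of Tap1 and Psmb9 lay 226 bases apart on opposite strands, so their windows overlap. Their TGACG matches are the same bases, counted once for each gene. These matches describe letters and not binding.

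Depth was 3311235 to 6311782 gene counts per cell, 1740862 in Positive, 825441 in the 0 h library and 190 in Negative. For differences between cells, each count was multiplied by the authors' factor for the library, which comes from spike-in RNA, and 100 was added. A gene was on in a cell when this adjusted count exceeded 300. A2 and C1 had the largest factors of the 10 cells (0.935 and 1) and G2 the smallest (0.0998), so a read weighed most in A2 and C1. Large cell C3 was left out by the study for its low correlation with the other libraries, and here Pearson r across genes with Positive was 0.435 for C3 and 0.614 to 0.825 for the other 9 cells. It had 3236 counts over 8 B cell markers, against 18726 to 145608 in the other 9 cells, with Cd79a and H2-Ab1 at 0 reads. Group values below therefore use 5 small and 4 large cells, and C3 is given on its own. Of 7 T cell markers only Lck had reads (63 to 663 in 4 of the 9 cells), and none of the 4 NK cell markers had any. Myeloid markers summed to 1144 counts in A2 (all Cd68), 169 in G2 and 115 in F7 (mostly Csf1r), and 0 in the other 6. Plasma cell markers summed to 2318 in A2 (1293 of Jchain, 1010 of Prdm1 and 15 of Sdc1). The sums of 3480 in C12, 4031 in G2 and 48 in C7 were all Prdm1, with no read of Sdc1 or Jchain.

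The class I chains were on in all 10 cells, and the transporter genes had no or few reads in most of them. B2m, H2-K1 and H2-D1 were on in each of the 9 cells, as were 2.72% of the 6435 genes on in at least 1 of them. Psmb8 was on in 8 cells, Tapbp in 6 and Psmb10 in 3, while Tap1 and Tap2 were each on in 1. In CPM (the per-million share of a library's gene counts) divided by exon length in kilobases, the median level over the 9 cells was 1765 for B2m, 351 for H2-D1, 271 for H2-K1, 62.7 for Psmb8, 53.7 for Tapbp, 1.27 for Psmb10, 0.055 for Tap1 and 0 for Tap2. The ranges over cells of neighbours in this order overlapped (815 to 3840 for B2m and 102 to 1150 for H2-D1, for example). Within each of the 9 cells, however, B2m was at least 2.04 times the summed heavy chains on this scale. This depends on the exon lengths used. In reads not divided by length, A2 had 10604 for B2m against 4417 for H2-K1 and 9619 for H2-D1, whereas E1 had 7627 against 1465 and 1664.

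**Figure D1:**
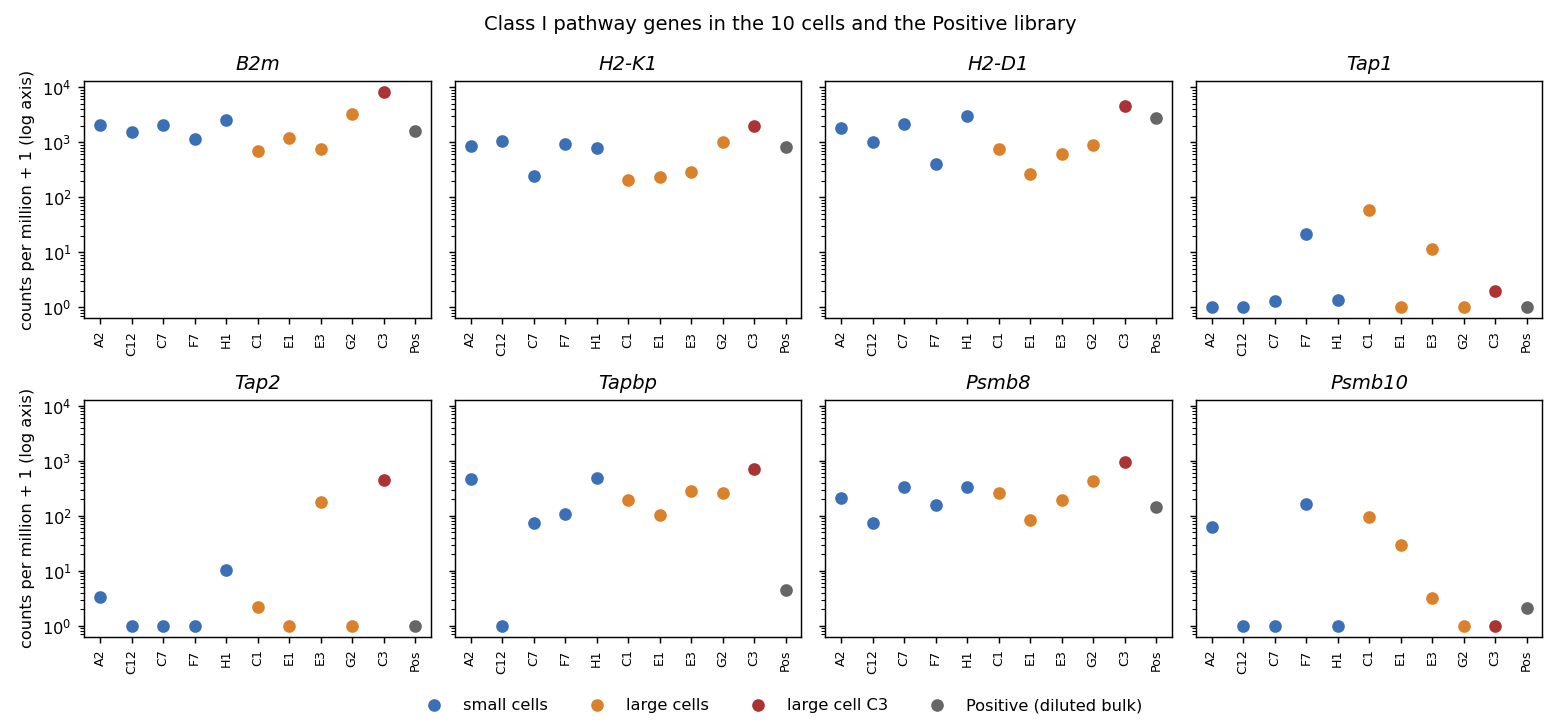
CPM plus 1 (log axis) of the 8 genes in each library, with 5 small cells in blue, 4 large cells in orange, C3 in red and Positive in grey; each point is 1 library. B2m, H2-K1 and H2-D1 have reads in all of them, whereas Tap1, Tap2 and Psmb10 fall to 0 counts (1 on this axis) in several cells.

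B2m encodes the light chain that every class I molecule needs. Its adjusted count was 10016 in A2, 2729 in C12, 2147 in C7, 2693 in F7 and 4064 in H1. In the large cells it was 2933 in C1, 3491 in E1, 1941 in G2 and 1860 in E3. The groups overlapped, with A2 far above the rest, and the mean was 4330 in small and 2556 in large cells, a log2 ratio of -0.76. Without A2 the ratio was -0.19. Its summed reads were 46998 (95% exact Poisson interval 46574 to 47425) in the 5 small and 33353 (32996 to 33713) in the 4 large cells, where the intervals cover counting error only.

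H2-K1 is 1 of the classical heavy chains, which bind the peptide and face the T cell receptor. Its adjusted count was 4230 in A2, 1940 in C12, 334 in C7, 2205 in F7 and 1367 in H1. On this scale the large cells lay close together, at 921 in C1, 751 in E1, 659 in G2 and 771 in E3. Thus 4 of the 5 small cells were above every large cell, and C7 was below all of them. Neither held in CPM, where G2 stood at 1003 and the other large cells at 203 to 282. There G2 was above every small cell but C12 (1062), and C7 (239) was above C1 and E1. The log2 ratio of large over small was -1.38, and it stayed between -0.42 and -1.65 under the other scalings, another added constant, with C3 kept and with each cell left out.

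H2-D1, the other classical heavy chain of this strain, had adjusted counts of 9095 in A2, 1884 in C12, 2210 in C7, 1022 in F7 and 4813 in H1. In large cells it had 3130 in C1, 840 in E1, 605 in G2 and 1540 in E3. The groups overlapped, A2 and H1 being the highest and E1 and G2 the lowest. The log2 ratio was -1.32 and ranged from -0.70 to -1.93 over the same alternatives. H2-K1 and H2-D1 are near relatives. Of the 50-base windows of their transcripts, 9.63% of H2-K1 and 12.8% of H2-D1 also occurred in another gene, so reads of that length could not always be told apart.

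The balance between the heavy chains differed from cell to cell. Within a library, H2-K1 made up 28.7% of the length-scaled reads of both heavy chains in A2, 47.5% in C12, 8.88% in C7, 66.7% in F7 and 19.1% in H1. In the large cells the share was 19.2% in C1, 43.6% in E1, 49.3% in G2 and 29.0% in E3. H2-K1 exceeded H2-D1 only in F7 among the 9 cells, the groups overlapped, and these shares do not depend on the spike-in factor. The ratio of B2m to the summed heavy chains, per kilobase, was narrower in small cells (2.04 to 2.81) than in large cells, where it was 2.27 in C1, 7.75 in E1, 5.54 in G2 and 2.60 in E3.

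Tap1 and Tap2, which pair to form the peptide transporter, were sparse. Tap1 had 130 reads in F7, 234 in C1 and 63 in E3, and 0 to 2 reads in the other 6 of the 9 cells. Tap2 had 1046 reads in E3, 51 in H1, 12 in A2 and 5 in C1, and none in the remaining 5. No cell was on for both, Tap1 being on in C1 and Tap2 in E3. A cell with 0 reads allows a level of up to 0.475 to 0.906 CPM (3 counts of the total), so the transcripts were under this level in the sequenced material, which says less about the cell before amplification. Of the 50-base windows of Tap1 transcripts, 3.33% also occurred in another gene, mostly Psmb9. The log2 ratios, 0.59 for Tap1 and 0.96 for Tap2, rested on 1 cell each and were -0.02 without C1 and -0.05 without E3.

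Tapbp, which encodes tapasin, ranged widely. Its adjusted count was 2385 in A2, 100 in C12, 172 in C7, 349 in F7 and 860 in H1. In the large cells it was 888 in C1, 388 in E1, 247 in G2 and 768 in E3. C12 had no read in 5766550 counts, which allows up to 0.520 CPM. The groups overlapped, and the log2 ratio of -0.43 became 0.63 without A2. By transcript sequence, 23.2% of its 50-base windows also occurred in another annotated gene.

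Psmb8 encodes the chymotrypsin-like subunit of the immunoproteasome and was found in every cell. Its reads differed 5.65-fold between the lowest and highest of the 9 cells, against 6.51-fold for B2m. The adjusted count was 1132 in A2, 227 in C12, 430 in C7, 459 in F7 and 624 in H1, and 1150 in C1, 333 in E1, 339 in G2 and 552 in E3. The groups overlapped, C12 alone lying below every large cell, and the log2 ratio of 0.05 was 0.45 without A2 and -0.49 without C1. Psmb10, the trypsin-like subunit, was patchy. It had 316 reads in A2, 1003 in F7, 373 in C1, 181 in E1, 13 in E3 and none in C12, C7, H1 and G2, with a log2 ratio of -0.12 that was -0.86 without C1 and 0.30 without F7.

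Across the 8 genes none was called higher in large cells by the study's score, which subtracts the fraction of small cells with the gene on from that of large cells, at 0.5 or above. The share over the 6435 genes was 5.83%. None was called lower at -0.5 or below, beside 1.88% of those genes. The scores ran from -0.15 (Psmb10) to 0.25 (Tap1 and Tap2), and genes on in every cell score 0 whatever their level. The median log2 ratio of the members was -0.28, with 3 above and 5 below 0, and the median of all 6435 genes was 0.02. Without A2 the medians were 0.30 for the members and 0.38 for all genes. With DESeq2 size factors they were 0.12 and -0.05, so the members lay below all genes in the first case and above them in the second. For no member did the groups separate fully, and they did so for only 30 of the 6435 genes. At an on threshold of 1000 in place of 300, H2-K1 (on in 4 of 5 small and 0 of 4 large cells) and H2-D1 (5 of 5 and 2 of 4) were called lower, beside 1.19% of the 2520 genes on at that threshold. The call of H2-D1 was marginal, with a score of -0.5 at the cut and F7 at 1022, just above the threshold.

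**Figure D2:**
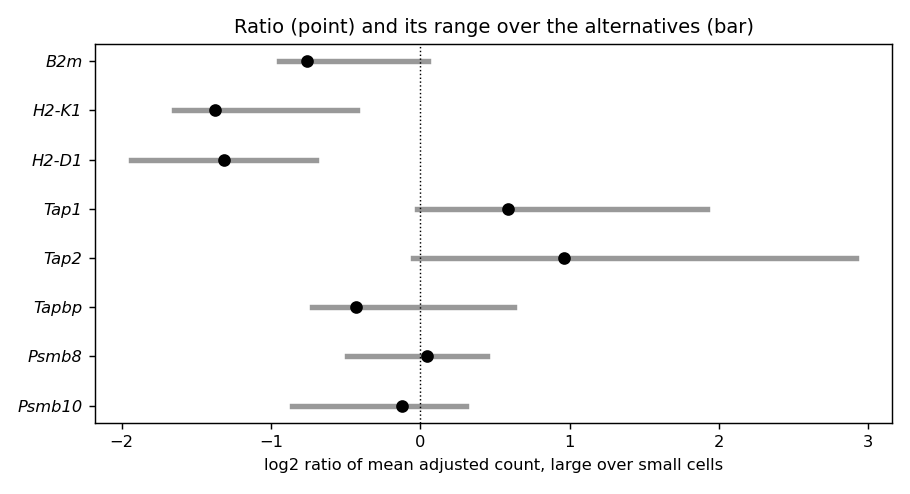
Log2 ratio of the mean adjusted count, large over small cells (x axis), for each gene (y axis); points are the values with 5 small and 4 large cells, and bars span the lowest to highest value over 14 alternatives. The bars of H2-K1 and H2-D1 stay below 0, and those of the other 6 genes cross it.

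The 8 genes together took 0.548% of all gene counts in A2, 0.368% in C12, 0.490% in C7, 0.291% in F7 and 0.707% in H1. In large cells they took 0.226% in C1, 0.192% in E1, 0.590% in G2 and 0.229% in E3. C1, E1 and E3 were thus below every small cell, and G2 was above all but H1. The exact 95% binomial interval, for counting error, was 0.541% to 0.554% in A2 and of like width elsewhere.

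**Figure D3:**
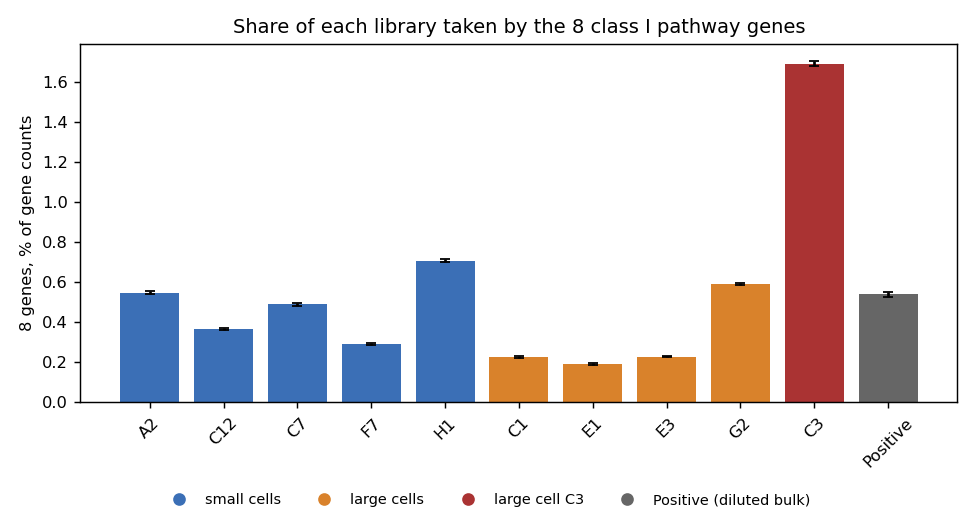
Percent of each library's gene counts (y axis, from 0) that fell on the 8 genes, for each cell and Positive (x axis); bars are single libraries and whiskers are exact 95% binomial intervals for counting error. C3 stands at 1.69%, above the 0.192% to 0.707% of the other cells.

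In C3 these genes stood out. B2m reached 8243 CPM there, 2.50 times the highest of the other 9 cells (3302), Psmb8 reached 956, or 2.23 times the highest, and H2-K1 reached 1978, or 1.86 times. H2-D1 (4594) and Tapbp (705) were 1.55 and 1.48 times the highest of the others. Tap2 had 1813 reads in C3, whereas Tap1 had 4 and Psmb10 none. The members' share was 1.69% (1.68% to 1.70%). The spike-in factor of C3 was 0.203, and on the adjusted scale its B2m (7004), H2-K1 (1756), H2-D1 (3948), Tapbp (691) and Psmb8 (901) all lay below A2, so the ranking of C3 depends on the scale. C3 also had few genes on (809) and reads on 3519 genes, fewer than any other cell had reads on. Its markers were 3236 B cell counts (mostly Cd74 with 2499, then Cd79b with 731), 80 myeloid counts and 0 counts of T cell, NK cell, dendritic cell, plasma cell and erythroid markers. The part of cell type, depth or RNA quality in the C3 values was not tested.

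Within each cell the immune catalytic subunits can be read against the constitutive ones without scaling between libraries, although the share depends on the exon lengths used. Psmb8 and Psmb10 made up 24.7% of the length-scaled reads of Psmb5, Psmb6, Psmb7, Psmb8 and Psmb10 in A2, 21.6% in C12, 31.7% in C7, 23.6% in F7 and 38.9% in H1. The share was 22.9% in C1, 10.7% in E1, 49.5% in G2 and 10.2% in E3. E1 and E3 were below every small cell and G2 above every one, so the groups overlapped, and the medians were 24.7% in small and 16.8% in large cells. In C3 it was 68.9%. Psmb9 is missing from these shares. Leaving out its counterpart Psmb6 as well gave medians of 42.4% and 43.2%. With reads not divided by length, and Psmb6 kept, the medians were 33.8% in small and 24.5% in large cells, and C3 had 88.2%.

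The pair Psmb8 and Psmb5, which take the same position in the particle, split the cells. Psmb8 took 91.9% of the pair in C12, 95.5% in C7 and 96.4% in H1, but 35.6% in A2 and 28.2% in F7. Among the large cells it took 38.8% in C1, 14.9% in E1, 77.2% in G2 and 45.9% in E3. In C12, C7 and H1 this came with 10, 14 and 18 reads of Psmb5, against 188 to 797 in the other 6 cells. Psmb6 had 0 reads in G2 and 494 to 4752 in the other 8 cells, and Psmb7 had none in C7. The shares of the pair Psmb8 and Psmb5 are length-scaled and depend on the exon lengths used. In reads not divided by length, Psmb8 exceeded Psmb5 in A2 (1104 and 530) and F7 (971 and 657), and was below it in E1 (524 and 797).

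**Figure D4:**
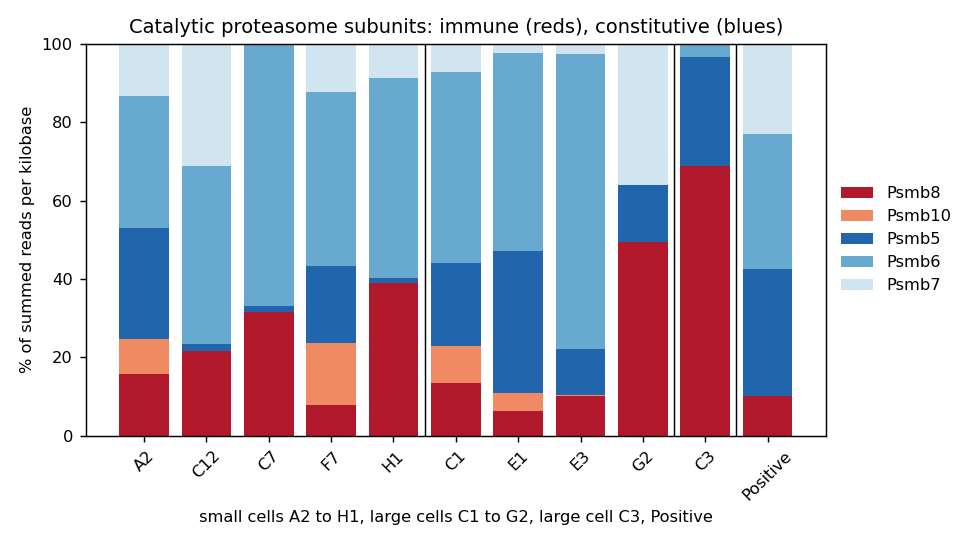
Percent of the summed reads per kilobase (y axis) on each measured catalytic subunit of the proteasome in the 10 cells and Positive (x axis), with immune subunits in red shades and constitutive ones in blue shades; each bar is 1 library. Psmb8 and Psmb10 make up 10.2% in Positive, 10.2% to 49.5% in the 9 cells and 68.9% in C3.

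The Positive library held the abundant genes at levels inside the range of single cells and had few reads of the sparse ones. In CPM it had 1615 for B2m, 835 for H2-K1, 2795 for H2-D1 and 144 for Psmb8, each inside the range of the 9 cells (701 to 3302, 203 to 1062, 264 to 2965 and 73.5 to 429). Tapbp had 6 reads (3.45 CPM), under the 9-cell median of 195. Psmb10 had 2 reads, and Tap1 and Tap2 had 0 of 1740862, which allows up to 1.72 CPM. Psmb8 and Psmb10 made up 10.2% of the catalytic subunits there, at the lower end of the cells. In a bulk library fewer cells with a transcript and less of it per cell cannot be told apart. Of the 8 B cell markers, 7 had reads in Positive, and Cd22, on in 6 of the 9 cells, had 0. Loss of transcripts in the diluted material was not tested, so these low values are not levels of the population. On the adjusted scale its factor of 0.0602 left H2-D1 as the only member on. Negative held 1 read of B2m and none of the others.

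The 0 h library did not give levels that could be set against the 24 h libraries. Its reads fell on 33107 genes with a median count of 8, and the Spearman correlation across genes between count and exon length was 0.857, against 0.176 to 0.347 in the cells. The 8 members had 6 to 27 counts in it, Tap1 the most. No change from 0 h to 24 h is therefore given.

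Among 20 other genes of the pathway, 18 were detected as on in some of the 9 cells. H2-T24, a nonclassical class I gene, met the score, with 563 reads in C1, 2757 in G2 and 0 to 19 in the other 7 cells, so that 1 of the 18 was called higher and none lower, beside 5.83% and 1.88% of all genes. Its score of 0.5 fell to 0.333 without C1 or without G2. The median log2 ratio of the 18 was -0.06. Canx, Calr and Pdia3, chaperones of class I folding and loading, were each on in all 5 small and 3 of 4 large cells, with 7 to 20920 reads of Canx over the 9 cells. Psme1 and Psme2, the subunits of the PA28 proteasome activator, were each on in 4 small and 3 large cells, and Psme1 had 8398 reads in C3 against 377 to 3323 in the other 9.

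The regulators and some nonclassical genes had most of their reads in single cells. Nlrc5, the transactivator of class I genes, was on only in C1, where it had 1350 reads. Irf1 was on only in C12 among the 9 cells, with 3760 reads, and had 5959 in C3. H2-T23, which encodes the Qa-1 molecule, had 14032 reads in G2 and 5182 in C3, and 6 to 3542 in the other cells. Of the 50-base windows of their transcripts, 35.0% of H2-Q6 and 26.5% of H2-Q7 also occurred in another gene, so the counts of these nonclassical genes are uncertain.

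Interferon-induced genes had few reads in most cells. Of 18 such genes, 12 had a read in any of the 10 cells and 8 were on in some of the 9, none was called in either direction (5.83% of all genes were called higher and 1.88% lower), and the median log2 ratio of the 8 was -0.51. Irf7, Ifit3, Oas1a, Mx1, Gbp2 and Rsad2 had no read in any cell. In C3 the 18 genes summed to 329 counts, within the 123 to 7782 of the other 9 cells.

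Among the members, Pearson r of log2(CPM + 10) over the 10 cells was 0.75 between B2m and H2-D1, 0.73 between B2m and H2-K1, 0.71 between B2m and Psmb8 and 0.49 between H2-K1 and H2-D1. Without C3 these were 0.60, 0.58, 0.44 and 0.27. The points share a library total in each cell, and C3 is the highest in each of these genes. Other pairs ran the opposite way, at -0.63 for B2m and Tap1 (-0.76 without C3), -0.51 for B2m and Psmb10 and -0.51 for H2-D1 and Psmb10. Tap1 and Tap2 gave -0.04. Outside the gene lists, the 5 of 3287 genes most like the members' mean over the 10 cells by the same measure were Gm8566 (0.89), Irf5 (0.87), Mrto4 (0.85), Creg1 (0.84) and Acap2 (0.83). Irf5, an interferon regulatory factor downstream of Toll-like receptors, had 3207 reads in C3 and 0 to 474 in the other 9 cells, and its value without C3 was 0.74. Gm8566 had 52 to 116 reads in the 9 cells and 108 in C3, and 0.91 without C3. Without C3 the values were 0.70 for Mrto4, 0.67 for Creg1 and 0.77 for Acap2. These 5 were picked as the highest of 3287 over 10 cells. Whether unrelated genes reach such values was not tested.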

How the data were processed

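Reads were aligned by the authors to Ensembl NCBI m37 with STAR and they deposited whole-number read counts over the exons of each gene. The STAR version, the counting tool and its use of strand are not given in the sources used here. Also, the authors deposited a factor per library from a linear fit to abundant spike-ins, taken as it stands. A further 26 columns of per-sample values, the authors' correlations and cell sizes, and their scores and enrichment tables, which hold their own comparisons, were not used.

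The adjusted count was count × factor + 100, a gene was on above 300, and calls were made at a score of 0.5 or -0.5. Levels between genes were divided by exon length from GENCODE M21 (GRCm38). That build differs from the authors', so coordinates come only from RefSeq promoters (GRCm38.p6). Ensembl identifiers gave symbols for 32919 of 37991 genes. PCR reads carry no molecular identifiers, so intervals (95%) and limits (3 counts) cover counting error only. No test over cells was run, and cells were numbered by accession order.

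The members and gene lists were chosen with earlier results of these data known. All members and list genes could be named, along with the 5 genes outside the lists most like the members, taken from genes with at least 10 CPM in 5 or more cells. Some list genes are not reported here by name. Doublets were not called. Alternatives were scaling by library total, TMM (edgeR 4.0.16) or DESeq2 1.42.0 size factors, a constant of 10, thresholds of 200 and 1000, C3 kept, and each cell left out. Leaving out Psmb6, the last 2 scalings for single genes and the score of H2-T24 with each cell left out were added after seeing the data. Counts of 37991 genes were simulated with counting error only and scaled by library total. On these the score recovered 100 of 100 genes raised and 100 of 100 lowered 16-fold. The simulation held no other variation between cells, so it says little about weaker changes or real cells. A smaller change was also simulated and is not reported here. The score also called 31 other genes higher. Its sensitivity to differences between the sequenced cells was not tested. R 4.3.3, Python 3.11.15, matplotlib 3.10.9, scipy 1.17.1, pandas 2.3.3 and numpy 2.4.6 were used.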

Additional observations from a re-analysis of the deposited data

Results flagged for a closer look

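Of 16 sets of cells examined, the adjusted counts of the 8 genes in each size group, 2 held a cell far from the others, and chance gives about 1 in 20 for values without a floor. Both concern Tap1, where most cells sit at the added constant of 100 with few or no reads, so that a cell with reads stands apart by construction. Tap1 stood at 148 in F7 and at 100 to 101 in the other 4 small cells, from 130 reads. Tap1 also stood at 334 in C1 (234 reads), against 100 to 125 in the other large cells.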

How the results depend on the processing

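No paired analysis was possible because the labels give no replicate numbers, and cells of the groups share no well, mouse or culture that is named. Raising the threshold from 300 to 1000 left 1 gene on in all 9 cells and called 2 lower (H2-K1 and H2-D1). H2-D1 was exactly at the cut, with a score of -0.5. Of the 2520 genes on at that threshold, 1.19% were called lower. With 1 cell left out, the median log2 ratio ran from -0.78 to 0.30, and relative to the median of all genes, which moved with it, from -0.51 to -0.07, the genes on in all 9 cells (8 then) from 3 to 4, the called genes stayed at 0 in either direction, and the difference in the median immunoproteasome share (large minus small, -7.86 percentage points) ran from -13.95 to -1.76. The constant of 10 moved the log2 ratio of Tap1 to 1.92 and of Tap2 to 2.92, and DESeq2 size factors moved that of B2m to 0.05. Tap1 moved to -0.02 without C1 and Tap2 to -0.05 without E3. The cause of these shifts was not tested. The other 74 group values and 107 single-gene values, each a result under 1 alternative, moved by less than the spread between cells or, for counts, 1.5-fold. Depth limits what can be read of Tap1, Tap2 and Psmb10, and 1 amplified library per cell gives no measure of technical loss.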
